A study of Mus musculus with 6 samples.

Results

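The 4 nuclear factor I genes *Nfia*, *Nfib*, *Nfic* and *Nfix*, together with *Zbtb20*, were analyzed as transcription factors of gliogenesis. These 5 genes were chosen by name among the 53379 genes of the RNA-seq table, each name had 1 row, and all 5 passed the filter on low values (a mean normalized count of at least 10), which left 14840 genes tested. The libraries came from neural stem cells (NSCs) of *Tbl1xr1* flox/flox mouse embryos, taken from the cortex at E14.5 and grown as neurospheres. The 3 control libraries (replicates 1, 1_1 and 2) were from cells that received a lentivirus with GFP only, and the 3 Cre-labelled libraries (replicates 2, 2_2 and 3) from cells that received Cre-GFP, whose recombinase cuts out the floxed part of *Tbl1xr1*, a subunit of the NCoR/SMRT corepressor complex. Both groups carry the floxed alleles and a lentivirus, and GFP-positive cells were sorted. The comparison asks how transcripts differ between NSCs with and without an exposure to Cre.

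NFI proteins bind DNA as dimers, at a palindrome of the letters TTGGC and GCCAA. In the embryonic cortex *Nfia* and *Nfib* come on in radial glia around the switch from neuron to glia production and promote astrocyte differentiation, *Nfix* acts in the same progenitors and in adult stem cells, and *Nfic* is best known outside the brain, in tooth root formation. *Zbtb20* encodes a BTB zinc finger repressor that specifies hippocampal neurons and that favors astrocytes in late cortical progenitors, where it represses *Pou3f2* (Brn2), a factor of upper layer neurons.

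The recovered depth was 7510615 to 11161497 reads in the control libraries and 11893230 to 14828100 in the Cre-labelled libraries, so the Cre-labelled libraries were the deeper ones throughout. *Tbl1xr1* itself was not lower in the Cre-labelled libraries, with 3381 ± 440 (SD, n = 3) normalized counts against 2477 ± 268 in control (log2 fold change 0.45, SE 0.14, limma adjusted p = 0.0600). This is the count over the whole gene, of which the floxed exon is a small part, so it does not test the deletion. The study reports a check of the sorted cells by genotyping, RT-qPCR and Western blot, with *Tbl1xr1* mRNA and protein absent after Cre. Why the whole-gene count was not lower here was not tested. Of the neural stem cell genes *Sox2* (6579 normalized counts in control) and *Nes* (6229) were far above *Prom1* (10.4971). Of the 15 neuron markers *Map2* (9210), *Bcl11b* (125), *Gad1* (99.4) and *Tubb3* (63.2) were read in control, while *Stmn2*, *Neurod1*, *Neurod6*, *Tbr1*, *Slc17a6* and *Slc17a7* had at most 3 reads in every library, as did *Emx1* of the cortex genes, *Gjb6* of the astrocyte genes, *Mobp* of the myelin genes, *Aif1*, *Cx3cr1*, *Tmem119* and *Itgam* of microglia (where *Csf1r* had 183 normalized counts in control), and *Cldn5*, *Cdh5* and *Pdgfrb* of endothelial and mural cells. No source states if the replicate pairs 1 with 1_1 and 2 with 2_2 were grown apart, and the study elsewhere gives 2 of its controls the same name but numbers its 3 Cre libraries separately, so the p-values measure only the spread between these libraries, which may be technical.

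In mm9 coordinates (GENCODE M1), *Nfia* (ENSMUSG00000028565) lies at chr4:97439425-97868605 on the plus strand and *Nfib* (ENSMUSG00000008575) at chr4:81936077-82351654 on the minus strand of the same chromosome. *Nfic* (ENSMUSG00000055053) lies at chr10:80858931-80893750 on the minus strand, *Nfix* (ENSMUSG00000001911) at chr8:87223775-87324243 on the minus strand and *Zbtb20* (ENSMUSG00000022708) at chr16:42875994-43642715 on the plus strand. The NFI genes are paralogs, so the sequence that could make reads ambiguous between them was compared. *Nfia*, *Nfic* and *Nfix* have an exon of 532 bases in common. For *Nfib* the stretch of 532 exon bases most like that of *Nfix*, without gaps, was used, which favors its match to *Nfix*. In these stretches 75.8% of the bases (*Nfia* and *Nfic*) to 82.0% (*Nfic* and *Nfix*) were equal between 2 genes. The 60 bases around the longest run that 2 of the genes share are shown 5′ to 3′ on the gene's strand, with capitals at each base that differs from *Nfix*.
Nfix, chr8:87296088-87296147: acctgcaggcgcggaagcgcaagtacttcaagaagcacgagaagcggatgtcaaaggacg
Nfic, chr10:80883417-80883476: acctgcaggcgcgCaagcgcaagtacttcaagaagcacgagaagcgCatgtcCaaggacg
Nfia, chr4:97449840-97449899: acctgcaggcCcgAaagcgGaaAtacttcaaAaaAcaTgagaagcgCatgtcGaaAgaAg
Nfib, chr4:82144547-82144606: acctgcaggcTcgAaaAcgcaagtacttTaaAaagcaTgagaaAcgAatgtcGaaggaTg
*Nfic* differed from *Nfix* at 3 of these 60 bases, *Nfib* at 10 and *Nfia* at 11. The longest exact run shared by any pair of the 5 genes over all annotated exons was 32 bases, between *Nfic* and *Nfix*, and the other pairs shared at most 25 bases.

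**Figure D1:**
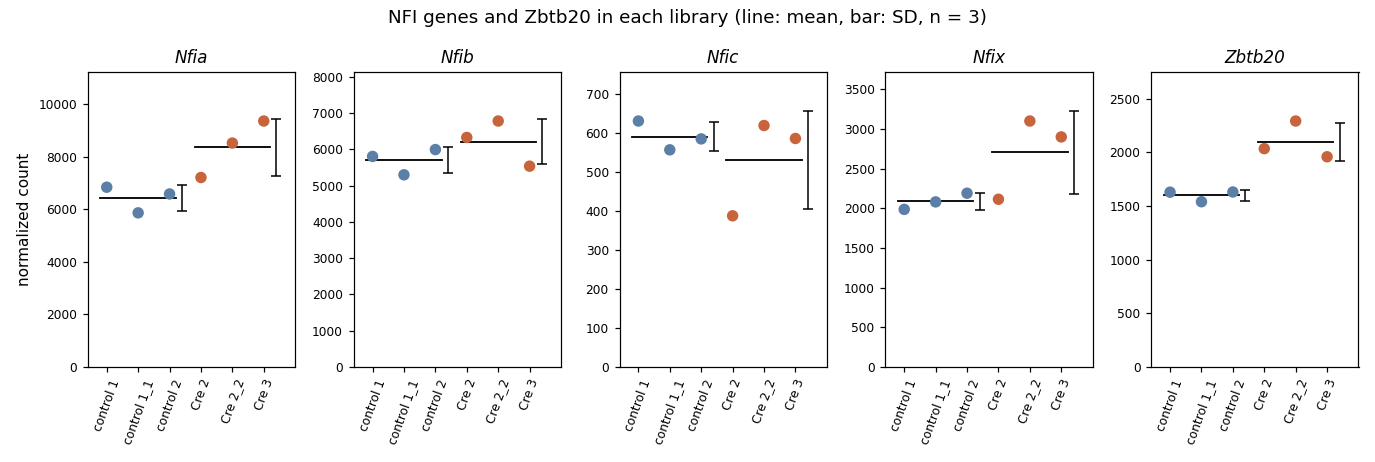
Normalized counts (y axis, from 0, a separate scale for each gene) of the 5 genes in the 3 control libraries (blue) and the 3 Cre-labelled libraries (orange), with the mean as a line and the SD as a bar. *Nfia* and *Zbtb20* were higher in every Cre-labelled library than in every control, whereas the groups overlapped for *Nfib*, *Nfic* and *Nfix*.

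*Nfia* was the most abundant member per length. Its level in control was 587 ± 46.2 (SD, n = 3) normalized counts per kb of exon, above that of 93.0% of the tested genes with a known length. The order of the control levels per kb was then *Nfib* (381 ± 24.1), *Nfix* (283 ± 13.9), *Nfic* (90.5 ± 5.72) and *Zbtb20* (52.0 ± 1.69), with no overlap between neighbors in this order. In the Cre-labelled libraries the levels per kb were 763 ± 99.0 for *Nfia*, 416 ± 42.2 for *Nfib*, 367 ± 70.9 for *Nfix*, 81.3 ± 19.2 for *Nfic* and 68.2 ± 5.69 for *Zbtb20*. There *Nfib* and *Nfix* overlapped, with *Nfix* above *Nfib* in replicate 3, and so did *Nfic* and *Zbtb20*, with *Nfic* below *Zbtb20* in replicate 2. The length is that of all annotated exons together, which for *Zbtb20* comes to 30730 bases, against 6534 to 14957 bases for the NFI genes, and transcripts that use only part of them would stand higher per kb.

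*Nfia*, which helps to start the gliogenic program, had 6833, 5857 and 6576 normalized counts in the controls (in the order 1, 1_1, 2) and 7202, 8513 and 9352 in the Cre-labelled libraries (in the order 2, 2_2, 3). No Cre-labelled library reached down to the control range, and replicate 2 came closest to it. The mean was 8356 ± 1084 against 6422 ± 506, a fold of 1.30 (95% interval 1.06 to 1.59) and a log2 fold change of 0.37 (SE 0.13). The unadjusted p of the limma fit was 0.0173 and the adjusted p was 0.105, so *Nfia* did not pass the threshold of 0.05 over all tested genes.

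*Nfib*, the partner of *Nfia* in the same progenitors, had 5805, 5298 and 5995 normalized counts in control and 6329, 6783 and 5537 in the Cre-labelled libraries. The groups overlapped, since replicate 3 of the Cre-labelled libraries lay below 2 of the controls. The fold was 1.09 with a 95% interval from 0.902 to 1.31 (log2 fold change 0.12, SE 0.12, limma adjusted p = 0.588). A difference was not detectable, and the interval leaves room for a rise as large as the fold of *Nfia*.

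*Nfix* had 1986, 2080 and 2190 normalized counts in control and 2114, 3101 and 2900 in the Cre-labelled libraries. Replicate 2 of the Cre-labelled libraries lay among the controls, whereas the other two lay well above them. The log2 fold change was 0.36 (SE 0.15), a fold of 1.28 with a 95% interval from 1.02 to 1.60. The limma p was 0.0336 before and 0.155 after adjustment.

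*Nfic*, the least abundant NFI gene, had 631, 557 and 585 normalized counts in control and 388, 620 and 586 in the Cre-labelled libraries. Replicate 2 of the Cre-labelled libraries was again the low one, and the other two lay within the control range. The fold was 0.881 (95% interval 0.675 to 1.15; log2 fold change -0.18, SE 0.17, limma adjusted p = 0.566). Its coefficient of variation was 23.6% among the Cre-labelled libraries against 6.32% in control, and that of *Nfix* was 19.3% against 4.90%.

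*Zbtb20* had 1628, 1539 and 1630 normalized counts in control and 2034, 2292 and 1958 in the Cre-labelled libraries. Its coefficient of variation, 3.25% in control and 8.35% in the Cre-labelled libraries, was the lowest of the 5 genes in each group, and the groups did not overlap. The mean was 2095 ± 175 (SD, n = 3) against 1599 ± 52.0, a fold of 1.31 with a 95% interval from 1.10 to 1.55 (log2 fold change 0.39, SE 0.11). With a limma p of 0.00563 and an adjusted p of 0.0535, it was the member closest to the threshold and lay just outside it.

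Thus 0 of the 5 genes passed an adjusted p of 0.05 in the limma fit, in which 9.96% of all tested genes did, 4.74% higher and 5.22% lower in the Cre-labelled libraries. Among the 5 genes, 3 (*Nfia*, *Nfix* and *Zbtb20*) had an unadjusted p under 0.05, each higher in the Cre-labelled libraries, as had 12.2% of the tested genes in that direction and 13.2% in the other. With edgeR on the recovered reads 0 of the 5 passed, and with DESeq2 1 did, *Zbtb20* (adjusted p = 0.0483). *Nfia* and *Zbtb20* were the 2 of 5 whose groups did not overlap, both higher in the Cre-labelled libraries, a pattern found in 14.7% of the tested genes. An exact two-sided permutation test gave p = 0.1 for each of the pair, the smallest that 3 libraries against 3 can give. The median log2 fold change of the 5 genes was 0.36, and that of all tested genes was -0.0010 with quartiles of -0.26 and 0.27. The changes of *Nfia*, *Nfix* and *Zbtb20* lay above the upper quartile and were exceeded by 18.1%, 19.1% and 17.4% of the tested genes, while those of *Nfib* and *Nfic* lay within the quartiles.

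**Figure D2:**
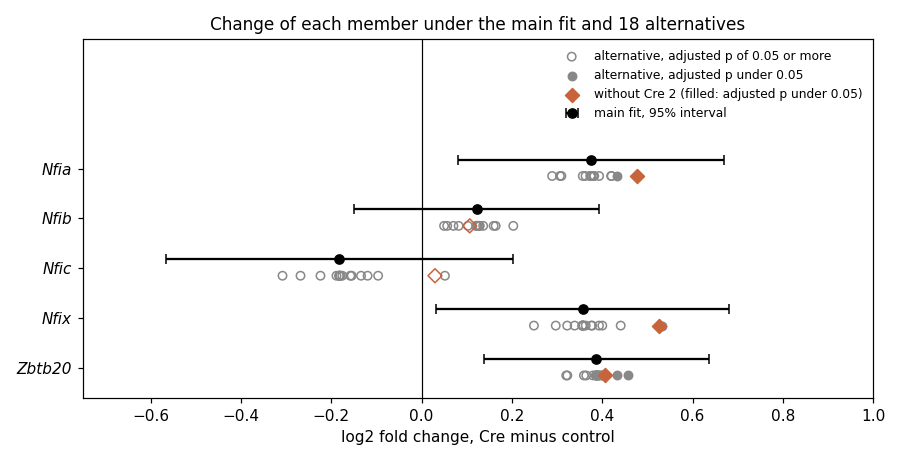
Log2 fold change of each gene, Cre-labelled libraries minus control (x axis), with its 95% interval in the limma fit (black) and under 18 alternative settings (gray circles, and an orange diamond without Cre replicate 2, filled where the adjusted p was under 0.05). *Nfia*, *Nfib*, *Nfix* and *Zbtb20* stayed above 0 in all 18. *Nfic* crossed 0 in 2 of them, without Cre replicate 2 and in a faulty fit that is described at the end.

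Cre replicate 2 decided several of these values. On the log2 scale its difference from the mean of the other two Cre-labelled libraries was -0.31 for *Nfia*, -0.50 for *Nfix* and -0.64 for *Nfic*, while *Nfib* (0.05) and *Zbtb20* (-0.06) were near that mean. Only 12.4% of the tested genes were lower in this library than *Nfix* by this measure, and 8.07% lower than *Nfic*. Without it, 3 of the 5 genes passed the threshold, *Nfix* with a log2 fold change of 0.53 (limma adjusted p = 0.00797), *Nfia* with 0.48 (0.0198) and *Zbtb20* with 0.41 (0.0350), and *Nfic* moved to 0.03 (0.911). In the same fit the number of all genes called rose from 1478 to 2396. It was also the deepest library and the one with the most genes detected (23116, against 21122 to 21688 in the others).

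The exons of *Nfix* and *Nfic* are rich in G and C (58.1% and 58.3%), whereas those of *Nfia* (42.5%), *Nfib* (41.9%) and *Zbtb20* (43.0%) lie below the median of 49.6% over the tested genes with a known sequence. The same deviation of Cre replicate 2 had a median over genes of 0.051 where the exon GC content was at most 42% and of -0.11 where it was above 58%. After each library was corrected for GC content, an alternative added after the data were seen, the log2 fold change was 0.44 for *Nfix* (limma adjusted p = 0.0640), 0.31 for *Nfia* (0.197), 0.32 for *Zbtb20* (0.0899), 0.05 for *Nfib* and -0.10 for *Nfic*, and 0 of the 5 passed. The part of GC content in the single values was not tested beyond this correction.

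The 4 NFI genes were also treated as 1 pool of transcripts. Their summed level per kb was 1379, 1257 and 1389 in control and 1428, 1747 and 1708 in the Cre-labelled libraries. The groups did not overlap, with a mean of 1628 ± 174 against 1342 ± 73.2 (ratio 1.21, exact permutation p = 0.1). The share of each gene within a library does not depend on the scaling between libraries. *Nfia* made up 43.7 ± 1.41% in control and 46.9 ± 2.83% in the Cre-labelled libraries, *Nfib* 28.4 ± 0.404% and 25.8 ± 3.99%, and *Nfix* 21.2 ± 1.47% and 22.4 ± 2.07%, all with overlap. The share of *Nfic* was 7.01%, 6.78% and 6.45% in control and 4.16%, 5.43% and 5.25% in the Cre-labelled libraries. It was the member whose share did not overlap, at 4.95 ± 0.689% against 6.75 ± 0.280% (exact permutation p = 0.1, 0.4 after adjustment over 4 genes), and replicates 2_2 and 3 alone also lay below every control.

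**Figure D3:**
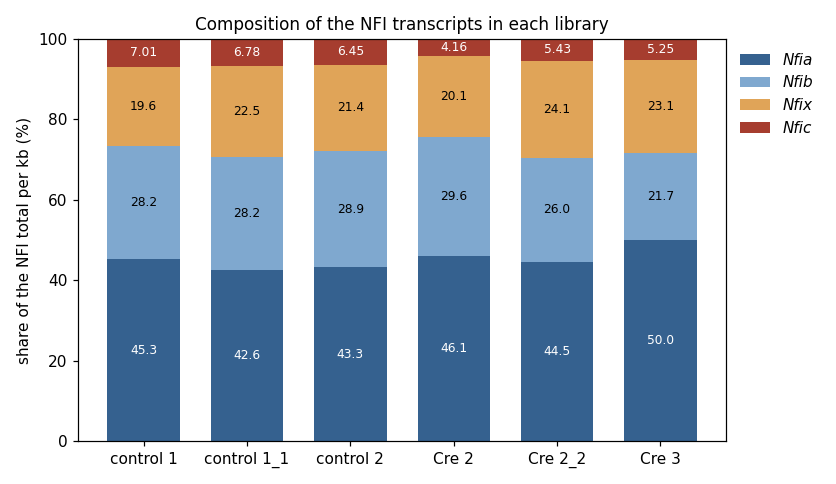
Share of each NFI gene in the sum of the 4 genes' normalized counts per kb (y axis, percent) in each of the 6 libraries. *Nfia* was the largest part everywhere, and the share of *Nfic* at the top of each bar was 6.45% to 7.01% in control and 4.16% to 5.43% in the Cre-labelled libraries.

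All 10 ratios between 2 of the 5 genes were compared, as log2 ratios within each library. In 4 the groups did not overlap, a share that was not computed for other pairs of genes. Among single tested genes, 14.7% were higher and 15.5% lower without overlap. The 10 ratios reuse the same 5 genes. All of these 4 but the ratio of *Nfib* to *Zbtb20* contain *Nfic*, so they are not separate results. The ratio of *Nfic* to *Nfix* was lower in the Cre-labelled libraries by 0.54 (difference -0.54, SE 0.09), and it lay between -2.44 and -2.30 there against -1.90 to -1.65 in control. The ratio of *Nfic* to *Zbtb20* differed by -0.57 (SE 0.20), that of *Nfia* to *Nfic* by 0.56 (SE 0.13) and that of *Nfib* to *Zbtb20* by -0.26 (SE 0.05). Each of these 4 had an exact permutation p of 0.1, the smallest possible, and 0.25 after adjustment over the 10 pairs. The ratios among *Nfia*, *Nfix* and *Zbtb20* differed by -0.03 to 0.02, with standard errors of 0.13 to 0.16, so changes of unlike size in these 3 genes were not detectable.

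Across the 6 libraries *Nfia* and *Nfix* had a Pearson r of 0.86 and *Nfia* and *Zbtb20* one of 0.80 (log2 scale, as a description, since the points share the group difference). *Nfic* had an r of -0.22 to 0.32 with the other members. Of all tested genes, the ones most like *Nfia* were *Arfgap1* (r = 0.998) and *Wscd1* (0.997), and those most like *Nfix* were *Tsc22d1* and *Rnd2* (both 0.996). *Nfib* was followed most closely by *Srf* (0.994) and *Srxn1* (0.991), and *Nfic* by *Ipo4* (0.992) and *Dusp4* (0.991). For *Zbtb20* they were *E130308A19Rik* (0.999), which rose from 107 to 215 normalized counts (log2 fold change 0.99, limma adjusted p = 0.00959), and *Spata1* (0.995). All these genes were picked as the highest r among 14840 genes over only 6 libraries. Their r values, and the rise of *E130308A19Rik*, are therefore a description and do not test a link to the members.

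Genes that overlap a member could share its reads, because the library kit does not keep strand and the counting is not given in the sources used here. *E130114P18Rik* runs opposite *Nfia* with 4 shared exon bases and had 185 to 509 reads, beside 4004 to 10445 for *Nfia*, and *Lyl1* runs opposite *Nfix* with 4 shared bases and 40 to 149 reads, beside 1422 to 3602 for *Nfix*. *G430095P16Rik* (137 bases opposite *Nfix*) had at most 2 reads, *Gm16104* (72 bases opposite *Nfic*) had 0, and *Gm9968* (104 bases opposite *Zbtb20*) had at most 18. *Mir568* lies on the strand of *Zbtb20* within 83 of its exon bases and was listed with 10 to 41 reads. *BC002163*, a pseudogene on the strand of *Zbtb20* with 0 shared exon bases, had 147 to 585 reads, beside 1052 to 2937 for *Zbtb20*. *Gm11266*, opposite *Nfib* with 0 shared exon bases, had 57 to 182 reads, beside 3622 to 9139 for *Nfib*. A second annotation entry for *Zbtb20*, with 3079 shared exon bases, was not analysed here.

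Among 18 regulators of gliogenic competence, 16 were tested, of which 3 rose and 1 fell, beside 4.74% and 5.22% of all tested genes. Their median log2 fold change was -0.09. *Sox9*, which induces *Nfia* at the onset of gliogenesis, rose from 4272 ± 444 to 8657 ± 1379 normalized counts (n = 3 each). Its log2 fold change of 1.01 (SE 0.14, limma adjusted p = 0.00175) stood beside at most 0.39 for the 5 factors, a difference that was not tested. *Olig2*, of the oligodendrocyte lineage, rose by 0.71 (adjusted p = 0.00747) and *Nr2f1* (COUP-TFI) by 0.66 (0.00569). *Nr2f2* (COUP-TFII) fell by 3.87 on the log2 scale (6.88e-05), from 110 normalized counts to 6.93. The Notch target *Hes1* (-0.08, adjusted p = 0.907) and *Stat3* (-0.04, 0.910), which transmits cytokine signals to astrocyte genes, did not pass. *Hes1* had 715, 622 and 704 normalized counts in control and 1200, 558 and 399 in the Cre-labelled libraries. Its replicate 2 thus lay above every control and its replicates 2_2 and 3 below every control, so its mean change hides a wide spread. *Prdm16*, which promotes astrocyte formation in the cortex, fell short of the filter, with 0, 1.46 and 1.33 normalized counts in control and 13.2, 20.7 and 20.6 in the Cre-labelled libraries. *Pou3f2* had 467, 475 and 551 normalized counts in control and 445, 357 and 388 in the Cre-labelled libraries. It was lower without overlap, as were 15.5% of the tested genes, but did not pass (log2 fold change -0.33, adjusted p = 0.165).

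**Figure D4:**
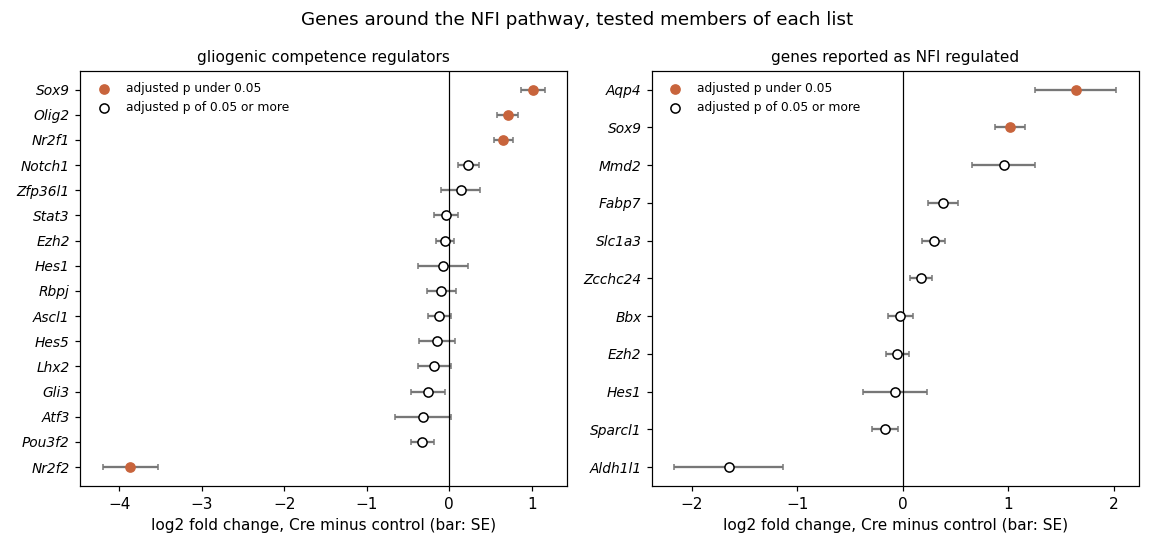
Log2 fold change with its standard error (x axis, Cre-labelled libraries minus control) of the tested genes among regulators of gliogenic competence (left) and among genes reported as NFI regulated (right), filled where the limma adjusted p was under 0.05. *Sox9*, *Olig2*, *Nr2f1* and *Aqp4* rose and *Nr2f2* fell, while the other genes did not pass.

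A list of 17 genes reported as regulated by NFI factors was described in the same way. It mixes genes reported as induced, such as *Mmd2*, and as repressed, such as *Ezh2*. Its counts and median therefore do not measure NFI activity in either direction. *Sox9*, *Hes1* and *Ezh2* are also among the regulators of gliogenic competence above, so the rise of *Sox9* is counted in both lists. Of its members 16 were named in the table and 11 were tested, of which 2 rose and 0 fell, beside 4.74% and 5.22% of all tested genes. The median log2 fold change of the 11 was 0.17. The risen genes were *Sox9* and *Aqp4*, the water channel of astrocyte endfeet, which went from 11.5 to 38.9 normalized counts (log2 fold change 1.64, adjusted p = 0.0228). *Mmd2*, induced by SOX9 and NFIA together, had 231, 228 and 284 normalized counts in control and 320, 865 and 396 in the Cre-labelled libraries (0.95, adjusted p = 0.0647). *Fabp7*, a fatty acid binding protein of radial glia, had a log2 fold change of 0.38 (0.122), and *Slc1a3*, the glutamate transporter GLAST, one of 0.29 (0.126). Of the 11 tested genes 5 had a negative log2 fold change. *Aldh1l1*, a folate enzyme of astrocytes, was lower without overlap, with 18.4, 19.0 and 14.7 normalized counts in control and 9.003, 2.58 and 4.48 in the Cre-labelled libraries (-1.65, adjusted p = 0.0650), and *Sparcl1* was at -0.17 (0.432). *Ezh2*, which NFI factors are reported to repress, was at -0.05 (0.807). *Gfap*, the intermediate filament of astrocytes and a target of NFIA, had at most 12 reads in any library and was not tested. Without Cre replicate 2, 5 of these 11 genes passed, and without Cre replicate 2_2, control 1 or control 1_1 only 1 did in each case. Of all 14840 tested genes, 1478 passed in the main fit and 2396 without Cre replicate 2. Without Cre replicate 2_2, control 1 and control 1_1 the numbers were 724, 558 and 704, so the background moved the same way.

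The promoters of these genes were searched for the NFI letters in RefSeq sequence (GRCm38.p6), from 250 bases before to 50 after each start. The core, TTGGC or its complement GCCAA, stood in 46.7% of all 32851 promoters, and the palindrome TTGGC and GCCAA with 5 bases between stood in 12 of them. Entries were found for 4 of the 5 factors (7 promoters) and for 10 of the 17 NFI-regulated genes. In the latter 7 of 10 held the core and 0 held the palindrome. Among the cell type marker lists the share with the core ran from 16.67% (cortex genes, 1 of 6 promoters) to 75% (microglia, 3 of 4). No difference between lists was tested. Of the factors, *Nfix* held the core at 3 of its 4 starts, and *Nfia*, *Nfic* and *Zbtb20* held none in this window. The *Nfix* start with 2 cores and the *Fabp7* start are shown 5′ to 3′ on the gene's strand, with the cores in capitals, as examples of the letters counted.
Nfix, chr8:84772826-84773125: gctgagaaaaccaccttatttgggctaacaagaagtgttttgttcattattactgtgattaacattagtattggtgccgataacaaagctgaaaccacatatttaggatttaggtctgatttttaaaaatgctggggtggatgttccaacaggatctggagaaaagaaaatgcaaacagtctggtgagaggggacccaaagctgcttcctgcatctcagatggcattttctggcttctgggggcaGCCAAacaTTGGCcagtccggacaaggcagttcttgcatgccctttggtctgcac
Fabp7, chr10:57784673-57784972: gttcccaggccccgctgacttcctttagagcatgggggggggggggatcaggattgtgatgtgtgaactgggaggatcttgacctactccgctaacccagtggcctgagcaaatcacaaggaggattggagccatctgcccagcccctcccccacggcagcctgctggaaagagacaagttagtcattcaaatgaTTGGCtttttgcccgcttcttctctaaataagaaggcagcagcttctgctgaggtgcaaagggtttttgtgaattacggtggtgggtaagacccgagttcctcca

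Markers of the cells that these factors help to form were counted next. Over all tested genes, the background for each list here, 4.74% passed as higher and 5.22% as lower in the Cre-labelled libraries. Of 15 astrocyte markers 13 were tested, of which 7 rose and 0 fell, with a median log2 fold change of 0.66. Their summed level was 17811 to 19343 normalized counts in control against 24178 to 25985 in the Cre-labelled libraries. The largest rises were those of *S100b* (3.10, limma adjusted p = 7.39e-07), *Ndrg2* (1.92, 0.000686), *Aqp4*, *Fgfr3* (1.44, 0.000113), *Slc1a2* (1.16, 0.000382) and *Atp1b2* (0.66, 0.0201), while *Aldh1l1* (-1.65, 0.0650) and *Sparcl1* (-0.17, 0.432) had negative values and did not pass. Of 12 oligodendrocyte lineage markers 8 were tested, of which 3 rose, *Pdgfra* (0.86, adjusted p = 0.0136), *Olig2* and *Cspg4* (0.64, 0.0285), and 0 fell, with a median of 0.67 and a sum of 12914 to 14835 against 17839 to 20143. In bulk RNA, more cells of a type cannot be told apart from more RNA per cell, for these markers as for the 5 factors. Without Cre replicate 2_2, control 1 or control 1_1, 4 astrocyte markers passed in each case, and without control 2, 1 oligodendrocyte lineage marker passed. In the same fits, in this order, 724, 558, 704 and 643 of all 14840 tested genes passed, against 1478 in the main fit. The part of such cells in the values of the factors was not tested.

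Of 10 neural stem cell markers, all tested, 2 fell, *Sox1* (-2.27, limma adjusted p = 3.66e-05) and *Nes* (-0.85, 0.00384), and 0 rose, beside 5.22% and 4.74% of all tested genes. The median was 0.14, with sums of 39204 to 43128 against 38416 to 41102. Of 15 neuron markers 8 were tested and 0 passed (median 0.05, sums of 9540 to 9723 against 10356 to 11583). Of 5 cortex genes 4 were tested and 0 passed (median -0.28, sums of 983 to 1183 against 870 to 1105). Without Cre replicate 2, 1 of them passed, beside 2396 of all 14840 tested genes. Of 6 microglia markers 1 was tested and did not pass (*Csf1r*, 0.25, sums of 162 to 205 against 166 to 273), as of 6 endothelial and mural markers (*Kdr*, -1.34, adjusted p = 0.0677, sums of 22.7 to 40.4 against 12.05 to 14.54).

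*Zbtb20* was set beside the 34 other genes whose name is Zbtb and a number, most of which encode BTB zinc finger repressors. Of these 30 were tested, of which 1 rose and 2 fell, with a median log2 fold change of 0.14 against 0.39 for *Zbtb20*. *Zbtb4* rose by 0.78 (limma adjusted p = 0.0254), *Zbtb12* fell by 0.75 on the log2 scale (0.00706) and *Zbtb16* (PLZF), a factor of stem cell maintenance, fell by 0.91 (0.0241). The 3 called are beside 9.96% of all tested genes. Without overlap 5 of the 30 were higher and 4 lower, beside 14.7% and 15.5% of all tested genes. Without Cre replicate 2, 5 of the 30 passed, and without Cre replicate 2_2 or any 1 of the controls, 1 did. Of all 14840 tested genes, 2396 passed without Cre replicate 2, and 558 to 724 in those other fits.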

How the data were processed

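RNA was extracted from 6 samples of NSCs, 3 per group, and libraries were made with a poly(A) kit that does not keep strand. The study's methods name TopHat with mm9 and mm10, and DESeq2, whereas the submitters' processing notes name STAR 2.7, DESeq2 and mm10. The read counter, its strand setting and the annotation are not given in the sources used here. The authors deposited normalized counts, a signal obtained by dividing each gene's reads by 1 size factor per library. They also deposited the fold changes and p-values of their own comparison, which were not used. Samples were grouped from the titles and the other labels.

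The value of 1 read per library was found from its lowest values, and 100% of the values then came out as whole reads within 0.001 of a read. Of 53379 genes, 873 had no name and 1 was left out for a missing value. limma 3.58.1 (R 4.3.3, trend) was fitted to log2(value + 1) of the 14840 genes whose mean was at least 10, with Benjamini-Hochberg adjustment over all of them and a threshold of 0.05. Fold changes are on this scale. Single values were tested with exact two-sided permutation tests (scipy 1.17.1). Alternatives were edgeR 4.0.16 (1483 genes called) and DESeq2 1.42.0 (1755) on the recovered reads, other pseudocounts, filters and scalings, averaged replicates, and leaving out each library. On simulated counts for this comparison, with 200 of 14840 genes changed by a factor of 2, limma recovered 83.0% with 6 false calls.

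Exon lengths, GC content and overlaps came from mm9 with GENCODE M1 (12913 of the tested genes matched, 87.0%), promoters from RefSeq (GRCm38.p6). Named were the 5 genes, *Tbl1xr1*, overlapping genes, the 2 most correlated genes of each member, and in each list those past the threshold (up to 6, or 4 for Zbtb genes) and markers at or under 3 reads. *Prdm16*, *Pou3f2*, *Hes1*, *Stat3*, *Mmd2*, *Fabp7*, *Slc1a3*, *Ezh2*, *Gfap*, *Aldh1l1*, *Sparcl1*, *Sox2*, *Prom1*, *Map2*, *Bcl11b*, *Gad1*, *Tubb3*, *Csf1r* and *Kdr* are list members named after their values were seen. The members and lists were chosen with earlier results of these data known. Figures were drawn with matplotlib 3.10.9.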

Additional observations from a re-analysis of the deposited data

How the results depend on the processing

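Under 18 alternatives *Nfia*, *Nfib*, *Nfix* and *Zbtb20* kept a positive log2 fold change. Apart from 1 faulty fit, described below, their adjusted p-values were 0.0198 to 0.295, 0.330 to 0.867, 0.00797 to 0.425 and 0.0350 to 0.194. *Nfic* ranged from 0.404 to 0.911. The number of the 5 genes called, 0 in the report, was 1 with DESeq2 (*Zbtb20*, 0.39, adjusted p = 0.0483). It was also 1 with a mean of at least 50 (*Zbtb20*, 0.39, 0.0474), and 1 at an adjusted p under 0.1. It was 3 in the faulty fit, set up as both replicate pairs averaged (*Nfia* 0.43, *Nfix* 0.53, *Zbtb20* 0.46), where *Nfic* turned to 0.052. That fit left out the deepest Cre-labelled library and used another one in both of its Cre values. It is therefore no test of averaging, and no conclusion is drawn from it. The number of all genes called, 1478 in the report, was 4785 in the faulty fit. It was 1474 with only the Cre pair averaged, 660 with control 1 and 1_1 averaged and 2380 at an adjusted p under 0.1. Averaging leaves fewer samples, and the cause of the shift to 660 was not tested.

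With 1 library left out in turn, 558 to 2396 of all genes and 0 to 3 of the 5 were called. The log2 fold change was 0.29 to 0.48 for *Nfia*, 0.057 (without Cre replicate 2_2) to 0.20 (without Cre replicate 3) for *Nfib*, 0.25 to 0.53 for *Nfix*, 0.32 to 0.43 for *Zbtb20* and -0.31 to 0.030 for *Nfic*, which turned positive without Cre replicate 2. *Zbtb20* passed without Cre replicate 2 (0.0350) and without Cre replicate 3 (0.0430). The ratios that changed sign ranged from -0.048 to 0.11 (*Nfia* to *Nfix*), -0.14 to 0.071 (*Nfia* to *Zbtb20*) and -0.14 to 0.12 (*Nfix* to *Zbtb20*). No paired analysis was possible because the groups share only 1 replicate number. Precision rests on 3 libraries per group, and counting error is largest for *Nfic*, with 381 to 720 reads per library.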
